A study of Danio rerio with 26 samples.

Results

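Gene expression in the dorsal parenchyma of the adult zebrafish telencephalon was compared between 3 arrays taken 2 days after a stab wound and 2 arrays from fish without a lesion. These 5 arrays were chosen by their titles out of 26 in the series, and all 19260 genes with a named probe set were included. Both groups were fish of the Tg(gfap:gfp)mi2001 line, aged 3-6 months and kept under normal husbandry. In this line the promoter of gfap, a gene of radial glia, drives green fluorescent protein, so the control fish carried the reporter too. Each array is labelled a biological replicate, but the number of animals behind it is not given, nor whether tissue was pooled. The p-values therefore rest on spread between arrays, not between animals. That spread was estimated for each gene from all arrays of the series, not from these 5 alone. The spread was not equal between regions. The residual SD, taken from deviations from the group mean, was 0.349, 0.287 and 0.3 on the day 2 arrays and 0.271 on each unlesioned array. On the day 7 parenchyma arrays it was 0.318, 0.289 and 0.347. Such deviations come out smaller in a smaller group, so the 0.271 of the unlesioned pair does not show that these arrays were more alike. The residual SD lay between 0.24 and 0.267 in the dorsal subventricular zone and between 0.236 and 0.324 in the medial zone. A shared estimate can thus be too small for the parenchyma, and the adjusted p-values below can be too low. The design text of the series names a stab wound, whereas the treatment text attached to every sample, unlesioned ones included, describes injection into the ventricle through a hole made in the skull. The unlesioned fish are therefore taken as the labels give them, and whether their skull was opened is not stated.

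The parenchyma of the dorsal telencephalon holds the cell bodies and synapses of mature neurons, with oligodendrocytes, microglia and vessels between them, while the radial glia that act as neural stem cells line the ventricle. A stab wound cuts axons and vessels, draws microglia and blood-borne leukocytes to the site, and in fish is followed by new neurons and a closed wound. Vessels of the brain form a barrier through tight junctions and selective transporters, and neurons depend on mitochondria and on lipids carried across that barrier.

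Expression levels are the authors' log2 values from robust multi-array averaging (RMA). This method corrects background, is meant to equalise the distribution between arrays and gives 1 value per probe set. The deposited values were not fully equal between arrays, with array medians from 3.01 to 3.21 over the series. A difference of 1 on this scale is a 2-fold difference. A gene was called higher or lower at a Benjamini-Hochberg adjusted p under 0.05 in limma, a linear model with shared variance estimates that was fitted to all 26 arrays. The median of all 75212 probe sets was 3.09, and a level below it was not shown to be above background. Levels of different genes were not compared with each other. The gene snap25a, a synaptic membrane protein of all neurons, lay between 9.89 and 10.36 on the 5 arrays, so each held neuronal tissue. A gene of all neurons cannot tell the dorsal parenchyma from another brain region, so it does not check the region label.

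The 3 day 2 arrays were not equally alike. On a principal component analysis of the 9247 genes above the median of the gene table (4.27), the first component held 42.4% of the variance. It placed the day 2 arrays at 19.69, 13.83 and 27.52 and the unlesioned arrays at -33.5 and -27.55. The second component, with 26.6%, set day 2 replicate 1 at 36.97, while day 2 replicates 2 and 3 lay at -16.59 and -19.17 and the unlesioned arrays at 0.75 and -1.96. Across these genes, replicate 1 correlated with replicates 2 and 3 at r = 0.926 and 0.921, replicates 2 and 3 correlated at 0.951, and the unlesioned pair correlated at 0.940. These correlations are across genes of single arrays and are given as a description. The array quality weight, which is lower for arrays that depart from their group, was 0.519 for day 2 replicate 1, 1.11 for replicate 2 and 0.995 for replicate 3.

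**Figure D1:**
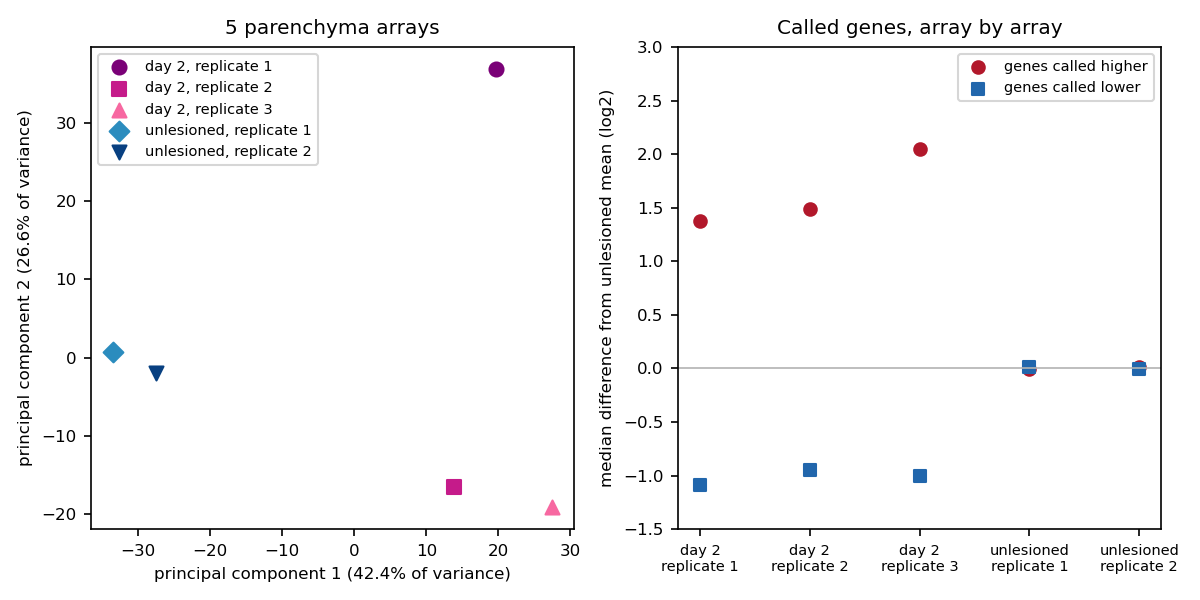
Left, the first 2 principal components of the 5 parenchyma arrays (percent of variance on each axis), with day 2 replicate 1 apart from replicates 2 and 3 on the second component. Right, for each array, the median difference from the unlesioned mean (log2) over the 328 genes called higher (circles) and the 64 called lower (squares), where the day 2 arrays reach 1.38, 1.49 and 2.05 for the higher genes and -1.09, -0.95 and -1.0 for the lower ones.

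Single genes set one day 2 array apart from the others of its group. Replicate 1 stood high for transcription factors that mark brain territories: otpa, a factor of hypothalamic and preoptic neurons, was at 7.30 there, at 4.34 and 4.03 in replicates 2 and 3, and at 4.16 and 4.61 in the unlesioned arrays. The forebrain factor lhx9 was at 7.23 in replicate 1 and at 3.92 and 4.39 in the others of its group. In the same array slc17a7a, the vesicular glutamate transporter used by pallial neurons, was at 4.91, against 7.45 and 6.47 in replicates 2 and 3 and 7.32 and 7.57 without a lesion. Replicate 1 was thus the lowest array for slc17a7a and the highest for otpa and lhx9. Other glutamatergic markers went both ways. Replicate 1 was also the lowest array for neurod2 (7.03, against 8.34 and 8.45 in replicates 2 and 3 and 8.88 and 8.56 without a lesion). The same held for fezf2 (2.60, against 4.21 and 4.50, and 4.43 and 4.57). The marker emx3 went the other way, at 7.12 in replicate 1, 6.64 and 6.97 in replicates 2 and 3, and 6.22 and 6.95 without a lesion. The 15 glutamatergic markers averaged 5.96 in replicate 1, 6.24 and 6.27 in replicates 2 and 3, and 6.37 and 6.48 without a lesion.

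The macrophage gene mfap4.1 was at 4.12 in day 2 replicate 1, near the unlesioned 4.06 and 3.81, but at 6.95 and 7.05 in replicates 2 and 3. The ATP-gated channel p2rx7 behaved alike, with 3.95 in replicate 1 and 6.32 and 7.14 in the others. Even so, the 31 microglia and macrophage markers averaged 6.12, 6.56 and 7.11 in day 2 replicates 1, 2 and 3 and 4.59 and 4.56 without a lesion, so the list mean did not overlap between groups.

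Replicate 2 stood high for the immediate early factor egr2b (6.43, against 4.92 and 4.08) and for gpr3, a constitutively active receptor (7.25, against 3.81 and 5.0). Replicate 3 had the highest level of the neuropeptide gene tac3b (10.20, against 4.87 and 7.49) and of epd, which encodes ependymin, a secreted protein of fish meninges (8.49, against 4.98 and 6.10). The immediate early gene fosab ran the other way, at 6.46 in replicate 3 and 8.52 and 8.85 in replicates 1 and 2, beside 6.41 and 7.06 without a lesion. The unlesioned pair differed most in ptgdsb.2, a prostaglandin D synthase gene (2.94 and 7.28), and differed in the lysosomal protease ctsba (4.41 and 7.27). These genes were picked for standing apart and carry no test.

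Between day 2 and no lesion, 392 of 19260 genes were called, or 2.04%, of which 328 were higher (1.7%) and 64 lower (0.332%). Rises were larger than falls. The 328 higher genes had a median fold of 3.06 with 108 above 4-fold, and the largest fitted fold was 27.2 (c1ql1, at 6.34, 8.12 and 8.22 against 3.00 and 2.59), whereas the 64 lower genes had a median fold of 2.05, a largest fold of 3.61 and none above 4-fold. In 51 of the higher genes, c1ql1 included, the unlesioned mean lay under 3.09, so their folds are not exact. Over all genes the median log2 difference was -0.00, and 49.5% had a positive difference. Without any test, all 3 day 2 arrays lay above both unlesioned arrays for 2457 genes (12.8%) and below both for 2307 (12%). The groups were apart in this way in all 328 higher and all 64 lower genes. For a single called gene, groups without overlap therefore add nothing to its call. At an unadjusted p under 0.05 in limma, 1394 of all genes (7.24%) were higher and 1023 (5.31%) lower. Counts at that level given below for single lists are to be read beside these shares. In whole tissue, fewer cells of a type and less RNA per cell cannot be told apart.

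The arrays carried the calls unequally. Replicate 3 was the highest day 2 array in 241 of the 328 higher genes, replicate 1 in 56 and replicate 2 in 31. Over all genes replicate 3 also had the highest levels of the day 2 arrays. Day 2 replicates 1, 2 and 3 had medians of 4.09, 4.2 and 4.24 and upper quartiles of 5.82, 5.95 and 5.98. The part of this offset in the count of 241 was not tested. Among the 64 lower genes, replicate 1 was the lowest in 27, replicate 3 in 21 and replicate 2 in 16. Without day 2 replicate 3 the count fell to 241 genes, 205 higher and 36 lower, and without unlesioned replicate 1 it fell to 231, of which 180 were higher. Without unlesioned replicate 2, 131 genes were lower. Of the higher genes 125 were called in each of the 5 fits that left out 1 array, and of the lower genes 1 was. Among the rises named below, those of txnipa, psat1, elovl1b, hadhaa, abca1a, slc40a1, kcna3a, sox11a, stmn1b, tuba1b, marcksa, marcksl1a, kif2c, jun, dnaja1, dnajb1a, krt18b and adam10a were lost in at least 1 of these fits, and the others were not. Gene lists described below as having no called member had at most 2 when 1 of the 5 arrays was left out. In a fit of the 8 parenchyma arrays alone, 78 of the higher genes and 2 of the lower ones were called. With the variance taken from the 5 compared arrays alone, 69 genes were called, 68 higher and 1 lower. These fits had 5 and 3 residual degrees of freedom, against 17 in the main fit. The part of the larger spread in the parenchyma in these lower counts was therefore not tested.

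The fallen genes are described below by the known roles of single genes, and no theme is drawn from these roles. On any of the 49 gene lists described here were 12 of the 64, beside 1834 of all 19260 genes. No list had more than 2 fallen members. Of the 64, 34 fell more than 2-fold, and 15 had a day 2 mean under 3.09, so that their folds are not exact. Leaving out day 2 replicate 1, 2 or 3 ended the call of 36, 24 or 40 of the 64, and leaving out unlesioned replicate 1 or 2 that of 54 or 46. Each fall named below, mamdc2b excepted, was lost in at least 1 of these fits. Most of the fallen genes named below are the 30 largest falls or list members, and those outside both were chosen for their roles after their values were seen.

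**Figure D2:**
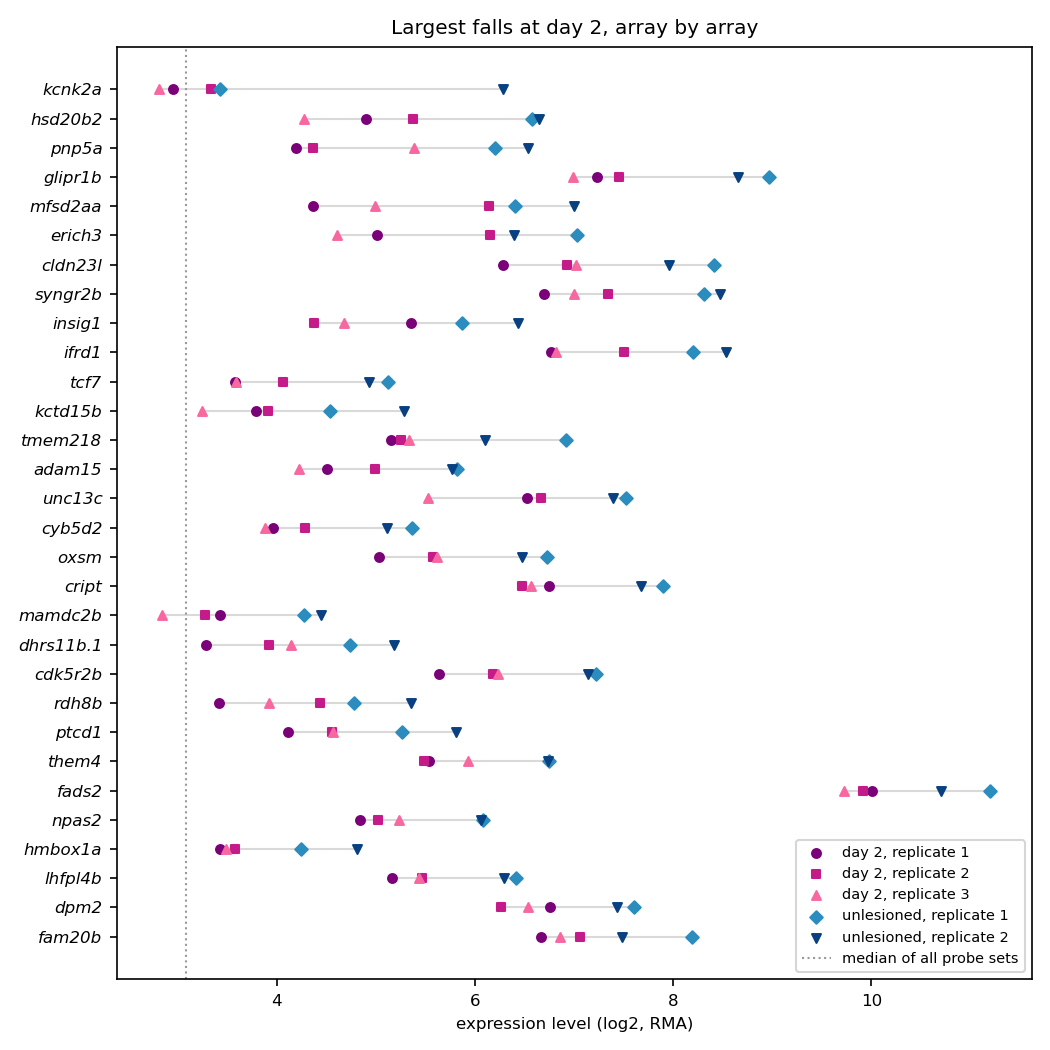
Expression level (log2) on each of the 5 arrays for the 30 largest falls among called genes with non-overlapping groups, a gene name and a higher group mean above 4.27. Day 2 arrays are circles, squares and upright triangles, and unlesioned arrays are diamonds and inverted triangles. In each gene every day 2 point lies left of both unlesioned points, as the choice of genes required. The dotted line is the median of all probe sets, 3.09.

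Among the largest falls were enzymes that act on steroids and purines. The gene hsd20b2, whose product takes part in the breakdown of cortisol in zebrafish, was at 4.90, 5.38 and 4.28 in day 2 replicates 1, 2 and 3 and at 6.58 and 6.65 without a lesion. The lowest unlesioned array was above the highest day 2 array by more than the range of the day 2 arrays. This was a fall of 3.39-fold (log2 difference -1.76, SE 0.43, adjusted p = 0.0292). The purine nucleoside phosphorylase gene pnp5a, whose product splits inosine and guanosine in purine salvage, was at 4.2, 4.37 and 5.39 at day 2 and at 6.2 and 6.54 without a lesion. Replicate 3 was the highest of its group for pnp5a, and the groups did not overlap (3.29-fold lower, adjusted p = 0.0203). At day 7, on arrays compared with the same unlesioned pair, hsd20b2 was at 4.95, 6.45 and 6.44 and pnp5a at 5.14, 5.67 and 6.03.

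The fallen lipid genes act in uptake, desaturation and sterol sensing. The transporter gene mfsd2aa, whose product carries lysophosphatidylcholine with docosahexaenoic acid into the brain across the endothelium, was at 4.37, 6.14 and 4.99 at day 2 and at 6.41 and 7.00 without a lesion. Replicate 2 came close to the unlesioned arrays without reaching them (2.9-fold lower, adjusted p = 0.0239). The desaturase gene fads2, which makes long-chain polyunsaturated fatty acids, was at 10.01, 9.92 and 9.72 at day 2 and at 11.20 and 10.70 without a lesion. The 3 day 2 values of fads2 were close together and below both controls (2.1-fold lower, adjusted p = 0.0496), and its call was lost when any 1 of the 5 arrays was left out.

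The sterol sensor insig1, which holds the SREBP regulator in the endoplasmic reticulum when sterol is plentiful, was at 5.36, 4.38 and 4.68 at day 2 and at 5.87 and 6.44 without a lesion (2.55-fold lower, adjusted p = 0.0263). Another probe set of insig1 differed by -0.05 only. Smaller falls included them4, an acyl-CoA thioesterase (5.54, 5.49 and 5.93 against 6.75 and 6.74), and oxsm, the ketoacyl synthase of mitochondrial fatty acid synthesis (5.03, 5.58 and 5.62 against 6.73 and 6.48). For both genes the unlesioned arrays lay above all 3 day 2 arrays, with adjusted p = 0.00988 for them4 and 0.00969 for oxsm.

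The falls also included retinoid enzymes. The retinol dehydrogenase gene rdh12 was at 6.35, 6.60 and 6.49 at day 2 and at 7.16 and 7.58 without a lesion, a fall of 1.85-fold (adjusted p = 0.00466) that was lost without unlesioned replicate 2. Its relative rdh8b was at 3.42, 4.44 and 3.92 at day 2 and at 4.78 and 5.36 without a lesion (2.21-fold lower, adjusted p = 0.0404). The 39 measured genes of steroid and retinoid metabolism held 2 fallen members, hsd20b2 and rdh12 (5.13% beside 0.332% of all genes), and no risen one. In 7, or 17.9% of the list against 12% of all genes, all day 2 arrays lay below both unlesioned arrays. The median of the list was -0.03. Its 2 calls became 1 without day 2 replicate 1, day 2 replicate 3 or unlesioned replicate 1, and 0 without unlesioned replicate 2.

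Some fallen genes act at synapses and in excitability. The gene unc13c, whose product primes synaptic vesicles for release, was at 6.53, 6.67 and 5.53 at day 2 and at 7.52 and 7.39 without a lesion. Replicate 3 was the lowest array, and the call (2.32-fold lower, adjusted p = 0.0209) was lost without it. An activator of the neuronal kinase Cdk5, cdk5r2b, was at 5.64, 6.18 and 6.23 at day 2 and at 7.22 and 7.14 without a lesion (2.24-fold lower, adjusted p = 0.0185). The gene cript, whose product binds a scaffold of the postsynaptic density, was at 6.75, 6.48 and 6.57 at day 2 and at 7.90 and 7.68 without a lesion (2.29-fold lower, adjusted p = 0.0241). For both genes the spread within each group was smaller than the gap between the groups.

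Of inhibitory synapses, the falls included lhfpl4b, which in mammals is needed to cluster GABA receptors (5.16, 5.47 and 5.44 against 6.42 and 6.29, adjusted p = 0.0165), and mdga2a, which binds neuroligins (5.50, 5.22 and 5.55 against 6.29 and 6.30, adjusted p = 0.0193). The intracellular growth factor homolog fgf13b, which binds sodium channels, was at 6.99, 7.40 and 6.78 at day 2 and at 8.14 and 7.61 without a lesion (1.77-fold lower, adjusted p = 0.0438), and another probe set of it differed by -1.21. The sodium-activated potassium channel gene kcnt2b was at 5.44, 6.08 and 5.31 against 6.5 and 6.45 (1.82-fold lower, adjusted p = 0.0253). The second largest fall among the 64 called genes, that of the background potassium channel gene kcnk2a, rested on 1 array. It was at 2.96, 3.34 and 2.81 at day 2, at 3.43 in unlesioned replicate 1 and at 6.28 in unlesioned replicate 2, and without the latter the log2 difference was -0.39.

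Beside these falls, the 28 markers of mature neurons averaged 8.43, 8.73 and 8.46 on the day 2 arrays and 8.50 and 8.65 without a lesion, so the list mean overlapped between groups. No marker on that list was called in limma (1 higher and 1 lower at an unadjusted p under 0.05), and the median difference was -0.03. Glutamatergic neuron markers had 13 of 15 members with a negative difference and a median of -0.16, with none called (0 higher and 1 lower at an unadjusted p under 0.05), and averaged 5.96, 6.24 and 6.27 against 6.37 and 6.48. GABAergic markers had a median of 0.03 with 12 of 21 positive. The part of cell numbers and of the dissected territory in the fallen synaptic genes was not tested.

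The genes mrps2 and mrps33 of the small subunit of the mitochondrial ribosome, on none of the lists and chosen after their values were seen, were at 7.32, 7.42 and 7.23 against 8.16 and 8.14, and at 6.00, 6.24 and 6.12 against 6.98 and 7.01. Both showed tight groups with a gap between them (mrps2 adjusted p = 0.00741, mrps33 adjusted p = 0.0398). The gene ptcd1, which acts on mitochondrial transfer and ribosomal RNA, was at 4.12, 4.56 and 4.57 against 5.27 and 5.81 (2.18-fold lower, adjusted p = 0.0369). The calls of mrps33 and ptcd1 were lost when any 1 of the 5 arrays was left out, and that of mrps2 without unlesioned replicate 1.

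Some fallen genes encode junction and surface proteins. A claudin, cldn23l, was at 6.28, 6.93 and 7.02 at day 2 and at 8.41 and 7.96 without a lesion, a fall of 2.72-fold (SE 0.26 on the log2 scale, adjusted p = 0.00191). Claudins are the sealing proteins of tight junctions, but the cell type that uses this one in fish brain is not known from these data. The desmosomal gene pkp2 was at 2.98, 3.34 and 2.94 against 3.91 and 3.98 (adjusted p = 0.0193), all near the median of probe sets. The membrane protease gene adam15 was at 4.51, 4.99 and 4.23 against 5.82 and 5.77 (2.33-fold lower, adjusted p = 0.0165). The fall called in every fit that left out 1 array was that of mamdc2b, a proteoglycan gene, at 3.43, 3.28 and 2.84 against 4.28 and 4.45 (2.27-fold lower, adjusted p = 0.00186).

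Of protein glycosylation, the falls included dpm2, a subunit of the enzyme that makes dolichol phosphate mannose (6.76, 6.26 and 6.54 against 7.61 and 7.43, adjusted p = 0.0409), and fam20b, a kinase of proteoglycan assembly (6.67, 7.06 and 6.86 against 8.19 and 7.48, adjusted p = 0.0203). In both genes the day 2 arrays were below both controls. Some of the dimmest falls were of genes for sensory receptors, such as the olfactory receptor olfcq19 (2.34, 2.28 and 2.42 against 3.99 and 3.18) and the trace amine receptor taar14a (2.12, 2.55 and 2.39 against 3.92 and 2.77). For both, unlesioned replicate 1 was the only array clearly above 3.09, and both calls were lost without it.

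Other falls included glipr1b of the secreted CAP protein family (7.23, 7.45 and 6.99 against 8.97 and 8.65, adjusted p = 0.0445) and syngr2b, a vesicle protein of the synaptogyrin family (6.70, 7.34 and 7.00 against 8.31 and 8.47, adjusted p = 0.0411). A gene with a locus name only, LOC100002043, showed the largest fall among the 64 called genes. It went from 7.23 and 6.86 to 5.05, 5.57 and 4.95 (3.61-fold, adjusted p = 0.0119). It stayed at 4.44, 4.54 and 4.39 on the day 7 arrays, which were compared with the same unlesioned pair. The genes tmem218 and erich3, both of cilia, were lower by 2.40-fold and 2.74-fold (adjusted p = 0.0235 and 0.0263), beside 18 markers of ciliated ependyma and choroid plexus that averaged 3.58, 3.62 and 3.55 against 3.63 and 3.65. The T-lymphocyte and Wnt factor tcf7 was lower by 2.42-fold (adjusted p = 0.00871), at 3.58, 4.07 and 3.59 against 5.12 and 4.93. It was the 1 fallen gene of 19 lymphocyte markers (5.26% beside 0.332% of all genes). The 1 risen marker (5.26% beside 1.7%) was il2rga, at 5.91, 5.71 and 6.55 against 4.06 and 3.96 (4.14-fold higher, adjusted p = 0.00072). The median of that list was 0.02, with 10 positive and 9 negative differences.

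Of the 64 fallen genes, 45 had a negative difference in the dorsal subventricular zone, or 70.3% beside 47.1% of all genes, and 49 in the medial zone, or 76.6% beside 50.9%. These regions share no array with the parenchyma, but whether their tissue came from the same fish is not stated. The sizes were smaller there: the median over the 64 genes was -1.03 in the parenchyma, where it was fixed by the choice of genes, -0.11 in the dorsal subventricular zone and -0.18 in the medial zone. In each of the other regions 2 of the 64 were also called. The difference between regions was not called in limma for any of the 64.

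Of 50 genes of glycolysis and glucose uptake 2 rose (4% beside 1.7% of all genes) and none fell, with a median of -0.02, and without unlesioned replicate 1 the count was 1. The aldolase gene aldoab was at 5.23, 5.20 and 5.12 at day 2 and at 3.42 and 3.52 without a lesion, 3.28-fold higher (adjusted p = 0.00091), with both groups tight. The gene txnipa, whose product restrains glucose uptake and thioredoxin, was at 6.60, 6.87 and 7.62 against 4.55 and 5.03 (4.71-fold higher, adjusted p = 0.00173). The hexokinase hk1 and lactate dehydrogenase ldha were not called, and ldha lay between 8.84 and 8.95 on all 5 arrays. The glucose transporter gene slc2a1a of the vessel wall was at 8.01, 8.76 and 8.54 at day 2 and at 9.64 and 8.63 without a lesion, which overlapped (log2 difference -0.70, SE 0.36, adjusted p = 0.438).

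The 66 genes of the mitochondrial respiratory chain showed a small difference in one direction. No member was called in limma (0 higher and 3 lower at an unadjusted p under 0.05), yet 57 of 66 had a negative difference, and in 21, or 31.8% beside 12% of all genes, all day 2 arrays lay below both unlesioned arrays. The reverse held for 1 member, or 1.52% beside 12.8%. The median difference was -0.16, and single members reached from -0.54 to 0.62. The list mean was 8.45, 8.53 and 8.34 at day 2 and 8.51 and 8.67 without a lesion, so replicate 2 lay between the unlesioned arrays. The largest difference among its members with the smallest p was that of ndufa8, a subunit of complex I (7.12, 7.41 and 7.08 against 7.56 and 7.92, adjusted p = 0.127). The median of the list was 0.02 in the dorsal subventricular zone and -0.08 in the medial zone. Members of the tricarboxylic acid cycle had a median of -0.06 with none of 30 called in limma (0 higher and 2 lower at an unadjusted p under 0.05).

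Of 57 amino acid and polyamine genes 3 rose (5.26% beside 1.7% of all genes) and 1 fell (1.75% beside 0.332%), with a median of -0.02. Without day 2 replicate 3 these 4 calls became 2. The largest rises were in uptake and glutamate breakdown. The heavy chain gene slc3a2a, which pairs with light chains to form amino acid exchangers, was at 7.04, 7.85 and 8.03 at day 2 and at 4.93 and 3.88 without a lesion (9.41-fold higher, adjusted p = 0.00027). Its paralog slc3a2b had the opposite sign without being called (6.87, 7.10 and 7.21 against 7.88 and 7.77, adjusted p = 0.127). Glutamate dehydrogenase, glud1a, was at 6.82, 6.59 and 7.22 against 4.01 and 3.97 (7.39-fold higher, adjusted p = 2.8e-06). These rises were called in each fit that left out 1 array. The serine synthesis gene psat1 was at 3.68, 4.78 and 4.78 against 3.48 and 2.39, with an unlesioned mean below 3.09. The gene mat2aa, which makes the methyl donor S-adenosylmethionine, fell from 7.71 and 7.71 to 6.99, 7.16 and 6.94 (1.61-fold, adjusted p = 0.0490).

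**Figure D3:**
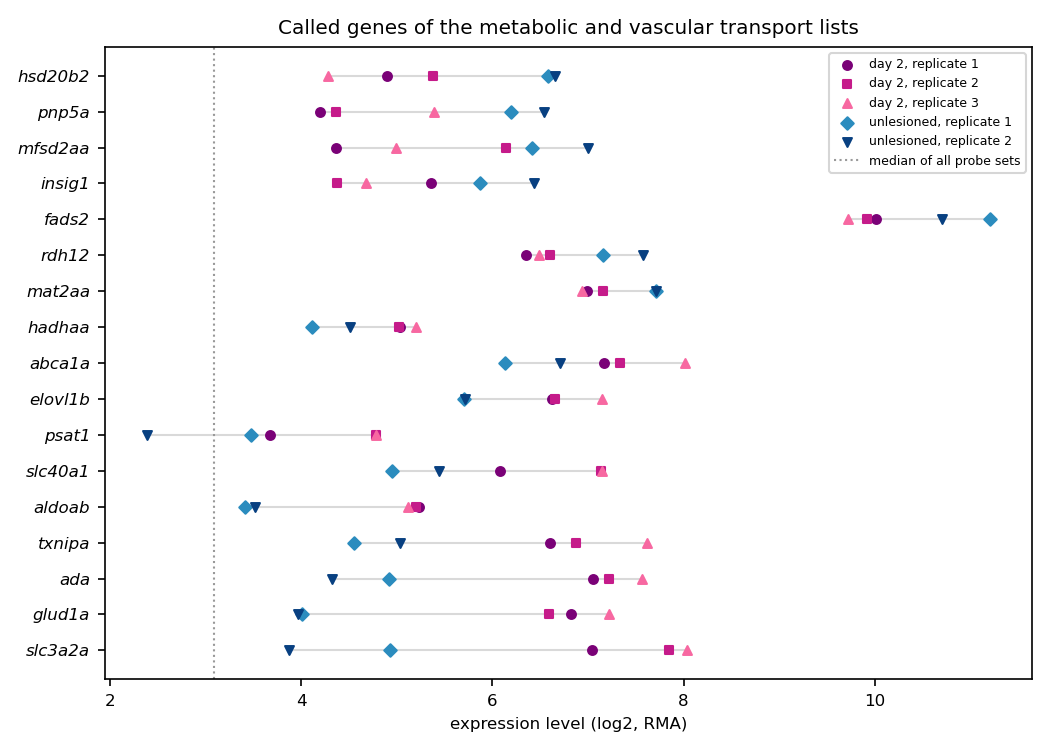
Expression level (log2) on each of the 5 arrays for the 17 called genes of the lipid, sterol, sugar, purine, amino acid, steroid and retinoid, vascular transport and iron lists, ordered from the largest fall (hsd20b2) to the largest rise (slc3a2a). Day 2 points lie to one side of both unlesioned points in every gene shown, as they do in every called gene.

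Purine metabolism had members on both sides. Adenosine deaminase, ada, which removes adenosine, was at 7.05, 7.22 and 7.56 at day 2 and at 4.92 and 4.32 without a lesion (6.27-fold higher, adjusted p = 0.00029), while pnp5a, the next enzyme of the same route, fell as given above. The other 47 of 49 members were not called, and the median was -0.04. Each direction held 2.04% of the list, beside 1.7% of all genes higher and 0.332% lower. Lipid genes likewise moved both ways. Of 51 fatty acid genes 2 rose (3.92% beside 1.7% of all genes) and 2 fell (3.92% beside 0.332%). The elongase gene elovl1b was at 6.62, 6.66 and 7.15 against 5.70 and 5.71 (2.15-fold higher, adjusted p = 0.00762), and hadhaa, of mitochondrial fatty acid oxidation, was at 5.04, 5.02 and 5.20 against 4.12 and 4.51 (1.71-fold higher, adjusted p = 0.0387). The cholesterol exporter abca1a was at 7.17, 7.33 and 8.01 against 6.13 and 6.71 (2.12-fold higher, adjusted p = 0.0140). It was the 1 risen of 34 sterol genes (2.94% beside 1.7% of all genes), and insig1 the 1 fallen (2.94% beside 0.332%). The 4 calls among fatty acid genes became 0 without day 2 replicate 3 or unlesioned replicate 1 and 1 without unlesioned replicate 2. Those 2 among sterol genes became 4 without day 2 replicate 1, 1 without day 2 replicate 2 or unlesioned replicate 2, and 0 without day 2 replicate 3 or unlesioned replicate 1. Those 2 among purine genes became 1 without day 2 replicate 2 or either unlesioned array.

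Several risen metabolic genes stood outside the lists and were chosen after their values were seen. The dipeptidase gene cndp2 was at 7.79, 8.10 and 9.07 against 5.81 and 5.01 (7.49-fold higher, adjusted p = 4.8e-05). A gene named for a small subunit of cytochrome c oxidase, cox7a2b, was at 7.14, 7.54 and 7.92 against 4.03 and 4.63 (9.22-fold higher, adjusted p = 0.00072), against the sign of most respiratory chain genes. The glycerol phosphate dehydrogenase gene gpd1a was at 4.73, 4.23 and 4.99 against 3.11 and 2.73, and its unlesioned mean lay below 3.09 (adjusted p = 0.00081). The iron exporter gene slc40a1, ferroportin, was at 6.08, 7.14 and 7.15 against 4.95 and 5.44 (3.02-fold higher, adjusted p = 0.00243). It was the 1 called gene of 29 in iron and heme handling (3.45% beside 1.7% of all genes). Without day 2 replicate 2 that list had 2 calls, and without unlesioned replicate 1 it had 0.

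Hormone and clock genes were mostly lower without passing the test. Of 43 glucocorticoid and circadian genes 33 had a negative difference, 14, or 32.6% beside 12% of all genes, had all day 2 arrays below both unlesioned ones, and the median was -0.41. Only npas2, a partner of the clock protein Bmal1, was called, as lower (2.33% of the list beside 0.332% of all genes). It was at 4.84, 5.02 and 5.24 against 6.08 and 6.06 (2.05-fold lower, adjusted p = 0.0165). The glucocorticoid-responsive genes klf9 and fkbp5 varied between arrays of one group. For klf9 the levels were 6.16, 5.93 and 4.55 against 7.91 and 7.58 (adjusted p = 0.446), and for fkbp5 they were 7.68, 6.03 and 4.97 against 7.42 and 8.04 (adjusted p = 0.527). The median of the list was -0.44 in the dorsal subventricular zone and -0.51 in the medial zone, and in the parenchyma it was -0.21 without unlesioned replicate 2. Time of day of sampling is not in the labels used here, and its part was not tested.

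**Figure D4:**
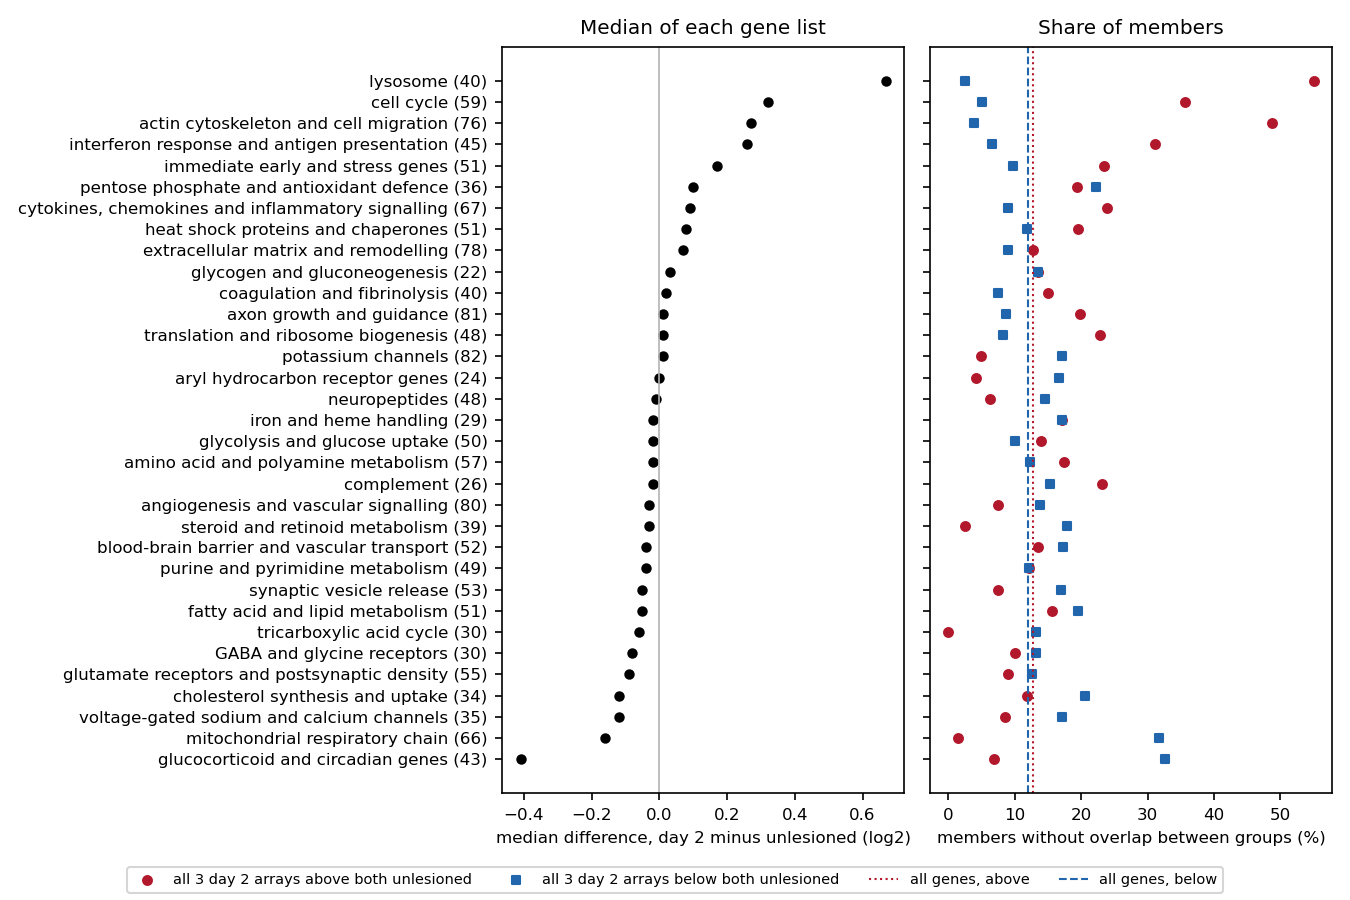
Left, median difference of day 2 minus unlesioned (log2) for each of the 33 function lists, with the number of measured genes in brackets. Right, percent of each list whose 3 day 2 arrays lie above (circles) or below (squares) both unlesioned arrays, with vertical lines at the values for all genes, 12.8% and 12%. Lysosome, cell cycle and actin lists lie far right of the line for higher levels, and the glucocorticoid and circadian and the respiratory chain lists lie right of the line for lower levels.

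Synaptic and channel genes did not pass the test as a rule. None of 53 synaptic vesicle genes was called in limma (3 higher and 2 lower at an unadjusted p under 0.05, median -0.05), nor any of 55 genes of glutamate receptors and the postsynaptic density (1 higher and 6 lower at that level, median -0.09). The smallest p in the latter was that of gria3a, an AMPA receptor subunit, at 4.94, 5.62 and 5.39 against 6.62 and 6.42 (log2 difference -1.21, adjusted p = 0.0804), although another probe set of gria3a differed by -0.30. The scaffold gene dlgap1a was at 8.23, 8.69 and 8.39 against 9.34 and 9.38 (adjusted p = 0.109). Both genes had non-overlapping groups without being called. None of 30 receptor genes for GABA and glycine was called in limma (2 higher and 1 lower at an unadjusted p under 0.05), and none of 35 sodium and calcium channel genes (1 higher and 4 lower). Neuropeptide genes had a median of -0.01 with none of 48 called (1 higher and 2 lower at that level).

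Potassium channels had 1 risen gene among 82 (1.22% beside 1.7% of all genes) and 1 fallen (1.22% beside 0.332%). This count of 2 was 0 without day 2 replicate 1 and 1 without day 2 replicate 2 or 3 or unlesioned replicate 1. The voltage-gated channel gene kcna3a was at 7.47, 7.13 and 7.22 at day 2 and at 6.30 and 6.65 without a lesion (1.74-fold higher, adjusted p = 0.0185). All 3 day 2 arrays of kcna3a were above the controls, and the call was lost without day 2 replicate 1 or unlesioned replicate 1. At an unadjusted p under 0.05 in limma, 9 of the 82 were lower, kcnk2a included, and 1 was higher. Of all genes 5.31% were lower and 7.24% higher at that level. In 14 of the 82, or 17.1% beside 12% of all genes, all day 2 arrays were below both controls, and in 4, or 4.88% beside 12.8%, they were above.

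A few genes of growing neurites rose. The tubulin gene tubb5, which developing and regenerating neurons use, was at 9.61, 10.02 and 10.03 at day 2 and at 8.11 and 8.65 without a lesion (2.84-fold higher, adjusted p = 0.00019), and its other probe set differed by 1.53. The transcription factor gene sox11a of immature and injured neurons was at 6.86, 5.65 and 6.06 against 5.04 and 4.06 (3.12-fold higher, adjusted p = 0.00088), with day 2 replicate 1 the highest. The microtubule regulator stmn1b was at 10.94, 10.91 and 10.92 against 10.32 and 10.21 (1.58-fold higher, adjusted p = 0.0203). These were the 3 called genes of 30 on the list of progenitors and immature neurons, whose median was 0.04 (10% of the list beside 1.7% of all genes), and without unlesioned replicate 2 there was 1.

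Of 81 axon growth and guidance genes 4 rose (4.94% beside 1.7% of all genes) and none fell, with a median of 0.01. The 4 were tubb5, tuba1b, marcksa and marcksl1a. Without day 2 replicate 3 or unlesioned replicate 1 the count was 2. The tubulin gene tuba1b was at 7.19, 6.68 and 8.45 against 5.71 and 6.26, with replicate 3 the highest, and its call (adjusted p = 0.0282) was lost without that array. The membrane-actin linker genes marcksa and marcksl1a were 2.16-fold and 1.78-fold higher (adjusted p = 0.00783 and 0.0114). At day 7, compared with the same unlesioned arrays, tubb5 was at 9.51, 9.80 and 9.76 and tuba1b at 5.60, 5.65 and 5.47. The neurotrophin receptor gene ngfrb, chosen after its values were seen, was at 6.33, 5.0 and 6.90 at day 2 against 3.57 and 2.87 (7.25-fold higher, adjusted p = 0.00079), though another probe set of it differed by 0.19.

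Vascular genes mostly did not pass the test. On the endothelial list 1 of 35 was called, as higher (2.86% beside 1.7% of all genes). This was pecam1a, an adhesion gene that in mammals leukocytes and platelets also express. It was at 7.33, 7.48 and 8.23 against 5.57 and 5.09 (5.09-fold higher, adjusted p = 2.7e-05). The defining endothelial genes cdh5, of adherens junctions, and cldn5a, of tight junctions, overlapped between groups: cdh5 was at 6.22, 6.64 and 6.93 against 7.10 and 6.40, and cldn5a at 5.92, 5.40 and 6.84 against 6.42 and 6.02. Their adjusted p-values were 0.891 and 0.899. The angiopoietin receptor gene tek was at 4.02, 4.52 and 4.6 against 3.53 and 3.79, above both controls on every array but not called (adjusted p = 0.0566). The median of the endothelial list was 0.08, and its mean per array was 4.27, 4.45 and 4.65 against 4.43 and 4.2.

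None of 15 mural cell genes was called in limma (1 higher and 1 lower at an unadjusted p under 0.05). The pericyte receptor gene pdgfrb lay between 4.27 and 4.48 on the 5 arrays, and the smooth muscle actin gene acta2 was at 6.42, 5.49 and 5.16 against 3.50 and 4.84 (log2 difference 1.52, adjusted p = 0.0569). Among 52 genes of the blood-brain barrier and vascular transport the median was -0.04. Of these, slc3a2a rose (1.92% beside 1.7% of all genes) and mfsd2aa fell (1.92% beside 0.332%). Of these 2 calls, 1 was left without day 2 replicate 1 or 3 or either unlesioned array. None of 80 genes of angiogenesis and vascular signalling was called in limma (2 higher and 6 lower at an unadjusted p under 0.05). The receptor gene tgfbr2b came closest, at 3.90, 4.22 and 4.13 against 4.86 and 4.78 (log2 difference -0.73, adjusted p = 0.0506), followed by tek, which is also on this list and is given above, and by the Notch ligand gene jag2b (4.47, 4.6 and 5.19 against 5.83 and 5.49, adjusted p = 0.0650). None of 40 coagulation genes was called in limma (4 higher and 1 lower at an unadjusted p under 0.05). Red cell genes overlapped as a list, with means of 4.58, 4.6 and 4.17 against 4.37 and 4.49.

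Genes of the actin cytoskeleton and of cell migration had 20 of 76 risen (26.3% beside 1.7% of all genes) and none fallen, and 37 (48.7%) above both controls on all day 2 arrays beside 12.8% of all genes. The Arp2/3 subunit gene arpc1b, which nucleates branched actin, was at 7.94, 7.49 and 8.33 at day 2 and at 4.39 and 4.26 without a lesion (log2 difference 3.59, adjusted p = 1.4e-08). The WAVE complex gene wasf2 was at 7.57, 7.47 and 8.31 against 4.78 and 5.11 (7.16-fold higher, adjusted p = 1.8e-06). Profilin, pfn1, was at 10.59, 10.94 and 10.94 against 8.79 and 8.43 (4.65-fold higher, adjusted p = 5e-06). All 3 genes had groups far apart on every array. Several risen members of the list are leukocyte genes, among them coro1a, lcp1 and nckap1l. Of the 31 microglia and macrophage markers 20 rose (64.5% beside 1.7% of all genes), but the lists share members, coro1a and lcp1 among them. The share of the rises on the actin list that came from leukocytes was not tested.

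Of 40 lysosomal genes 15 rose (37.5% beside 1.7% of all genes), the median was 0.67, and 55% lay above both controls on all day 2 arrays beside 12.8% of all genes. Of 59 cell cycle genes 3 rose (5.08%), the median was 0.32, and 21 members (35.6%) lay above both controls on all day 2 arrays. Without unlesioned replicate 1 these counts were 8 and 1. The lysosomal protease gene lgmn was at 9.81, 9.76 and 10.25 against 8.24 and 8.48, a rise of 2.99-fold. Among cell cycle genes, nusap1 of the spindle was at 4.76, 5.74 and 5.37 against 3.71 and 3.30 (3.43-fold higher, adjusted p = 0.00211), whereas pcna, the replication clamp, was at 8.27, 8.16 and 8.45 against 7.64 and 8.31 and overlapped. The kinesin gene kif2c was highest in replicate 1 (5.40, against 4.47 and 4.40), with unlesioned levels of 2.69 and 3.05, and another probe set of it differed by 0.07.

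Of 51 immediate early and stress genes 4 rose (7.84% beside 1.7% of all genes) and 1 fell (1.96% beside 0.332%), and of 51 heat shock proteins and chaperones 3 rose (5.88%) and 2 fell (3.92%). Leaving out 1 of the 5 arrays changed the 5 calls of the first list to between 1 (without unlesioned replicate 2) and 4, and the 5 of the second to 3, or to 2 without unlesioned replicate 1. The injury factor atf3 was at 5.03, 4.74 and 4.28 at day 2 against 2.98 and 2.76, and jun was at 5.04, 4.99 and 4.83 against 3.66 and 3.34 (2.74-fold higher, adjusted p = 0.00546). The Hsp40 genes dnaja1 and dnajb1a rose 2.33-fold and 2.24-fold, while dnajb6b of the same family fell 1.89-fold (adjusted p = 0.0039, 0.0263 and 0.0446). The chaperone gene hsp90aa1.1, the fallen gene of both lists, was at 3.03, 2.87 and 3.19 against 3.81 and 3.87, with a day 2 mean under 3.09 (adjusted p = 0.0281). Glial genes did not pass the test: gfap was at 8.07, 8.12 and 8.92 against 8.09 and 7.18, and none of 21 radial glia genes was called in limma (2 higher and 1 lower at an unadjusted p under 0.05). Of these 21, 15 had a positive difference, and the median was 0.30, or 0.09 without unlesioned replicate 2. In 23.8% of the list all day 2 arrays lay above both controls, beside 12.8% of all genes. In 9.52% they lay below both, beside 12%. The myelin gene mbpa was at 8.88, 8.35 and 8.22 against 9.02 and 8.51, and none of 14 oligodendrocyte genes was called (1 higher and 0 lower at that level).

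Some risen genes outside every list encode matrix, growth factor and epithelial proteins, and were chosen after their values were seen. The insulin-like growth factor gene igf2b was at 5.96, 5.22 and 6.36 at day 2 against 4.00 and 3.63 (4.09-fold higher, adjusted p = 0.00171). The integrin chain gene itgav was at 6.04, 6.51 and 7.00 against 5.05 and 4.75 (3.07-fold higher, adjusted p = 0.0016), and the keratin gene krt18b was at 8.04, 7.54 and 9.50 against 6.30 and 5.13 (6.24-fold higher, adjusted p = 0.00546). For each of these, replicate 3 was the highest and the groups were apart. The day 2 difference in the dorsal subventricular zone and the medial zone was -0.50 and -0.59 for igf2b and 0.12 and 0.05 for itgav, and the difference between regions was not called for either gene. Of 78 extracellular matrix genes 1 rose (1.28% beside 1.7% of all genes), the sheddase gene adam10a (7.14, 7.01 and 7.55 against 6.22 and 5.90, adjusted p = 0.00746).

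Whether the day 2 effect in the parenchyma differed from that in the other regions was tested as a difference of effects. Arrays of different regions were treated as independent. Against the dorsal subventricular zone, the cell layer along the ventricle, 10 genes were called (0.0519%), and against the medial zone 2 (0.0104%). In all 10 the effect was more positive in the parenchyma. The transglutaminase gene tgm2l, which cross-links proteins, differed from both regions: it rose from 2.77 and 3.05 to 6.23, 5.91 and 6.37 in the parenchyma, a log2 difference of 3.26, against 0.85 in the dorsal subventricular zone and 0.96 in the medial zone. The test of the difference gave adjusted p = 0.0114 and 0.0333. Since the unlesioned mean of tgm2l lay below 3.09, its fold is not exact.

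For tubb5 the effect was 1.51 in the parenchyma and -0.47 in the dorsal subventricular zone, a difference of 1.97 (SE 0.29, adjusted p = 0.0114), and for kcna3a it was 0.80 and -0.61, a difference of 1.41 (SE 0.25, adjusted p = 0.0315). The actin regulators arpc1b, wasf2 and arhgap27 had larger rises in the parenchyma, with differences of 1.97, 2.2 and 2.44. Starting levels also differed between regions. In parenchyma and dorsal subventricular zone, arhgap27 had unlesioned means of 4.29 and 7.03 and day 2 means of 6.97 and 7.27. For tubb5 these were 8.38 and 11.31, then 9.89 and 10.85. For arpc1b they were 4.33 and 4.96, then 7.92 and 6.59, and for wasf2 4.94 and 5.88, then 7.78 and 6.53. The sterol synthesis gene cyp51 was not called in the parenchyma (4.97, 5.60 and 5.44 against 5.76 and 5.56). It fell by 2.09 on the log2 scale in the dorsal subventricular zone, a difference of 1.76 (adjusted p = 0.0385). Its unlesioned means in parenchyma and dorsal subventricular zone were 5.66 and 7.99, and its day 2 means 5.33 and 5.9. The complement gene c4 was near the median of probe sets in the parenchyma, at 2.79, 3.1 and 3.39 against 3.04 and 3.34, while its log2 difference in the medial zone was 2.34 (difference of effects -2.43, adjusted p = 0.014).

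**Figure D5:**
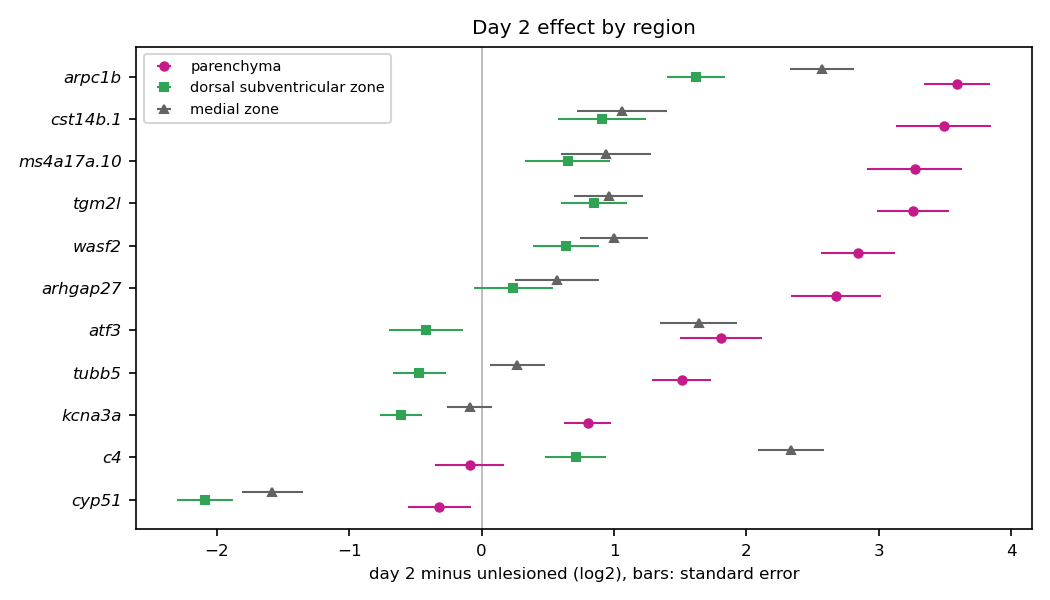
Day 2 minus unlesioned (log2) with its standard error for the 11 genes whose day 2 effect in the parenchyma (circles) differed from that in the dorsal subventricular zone (squares) or the medial zone (triangles). In all but c4 the parenchyma point is the rightmost, and for cyp51 it is at -0.32 while the other regions are at -2.09 and -1.58.

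These small counts depended on single arrays, and so did their direction. Without day 2 replicate 3 the count against the dorsal subventricular zone was 0 in limma (1279 at an unadjusted p under 0.05). Without unlesioned replicate 1 it was 2, both with the effect more negative in the parenchyma, so no more positive effect was left. Without unlesioned replicate 2 it was 29, of which 16 were more positive and 13 more negative in the parenchyma, and without day 2 replicate 1 it was also 29, of which 28 were more positive. Leaving out replicate 1 or 2 of the dorsal subventricular zone at day 2 or its unlesioned replicate 2 gave 2 more positive effects, and leaving out its unlesioned replicate 1 gave 5.

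For the medial zone, the 1 more positive and 1 more negative effect became 19 and 1 without day 2 replicate 1, 4 and 2 without day 2 replicate 2, and 0 and 1 without day 2 replicate 3. They became 0 and 4 without unlesioned replicate 1, so that tgm2l was no longer called higher, and 8 and 5 without unlesioned replicate 2. Leaving out replicate 1, 2 or 4 of the medial zone at day 2 gave 8 and 1, 0 and 1, or 3 and 1, and leaving out its unlesioned replicate 2 gave none in limma (1331 at an unadjusted p under 0.05).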

How the data were processed

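Total RNA of zebrafish dorsal parenchyma (RNeasy Plus Micro), amplified and labelled with biotin (Ovation PicoSL WTA and Encore kits, per the labels' protocols), was hybridised to Affymetrix arrays. RMA in Affymetrix Expression Console 1.2 gave the deposited log2 values, per the submitters' processing notes. Scanner files were not used here, and the genome build is not given in the sources used here, so no position is printed. Precision is limited by the number of arrays, 3 and 2.

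Of 75212 probe sets, 20806 carried 1 symbol in the platform annotation, 855 several and 53551 none. Symbols were matched by Entrez identifier to current names (20323 found, 1 symbol changed), and each gene was its probe set of highest mean over 26 arrays, giving 19260 genes, 1365 of them with more than 1 probe set.

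The model had a mean for each of the 9 groups and used every array (lmFit and eBayes of limma 3.58.1, run under R 4.3.3, 17 residual degrees of freedom), with Benjamini-Hochberg adjustment over all genes and a threshold of 0.05. The script was tested on simulated data. Every adjusted p comes from limma. Summaries were made with pandas 2.3.3 and numpy 2.4.6 under python 3.11.15, and figures with matplotlib 3.10.9.

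The comparison, the 49 gene lists (16 of cell types, 33 of functions) and the rule for named genes were chosen with earlier results of these data known. The rule took the 15 largest rises and 30 largest falls among called genes with non-overlapping groups, a higher group mean above 4.27 and no clone name, up to 6 members of smallest adjusted p per list, 19 set genes, up to 8 genes per difference between regions, and the 5 highest and 5 lowest genes of each array against the rest of its group. Lists are described by counts and medians, with no test.

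Alternatives were a block for the replicate number, fixed or random, other sets of arrays, quality weights, other scalings, removal of the dimmest genes, every probe set, means of probe sets, a robust prior with trend, and leaving out each array. The labels do not say that a replicate number marks a shared animal or day, so the numbers were not taken to pair arrays. The deviations of same-numbered arrays of both groups correlated at -0.0152 and 0.0279. With 2 unlesioned arrays, whose deviations mirror each other, these correlations cannot decide on pairing. Whether regions of the same time point came from the same fish was not tested.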

Additional observations from a re-analysis of the deposited data

Results flagged for a closer look

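For 11 genes the day 2 effect in the parenchyma differed from that in another region by a limma test of the difference of effects. Against the dorsal subventricular zone the difference on the log2 scale was 1.41 for kcna3a, 1.76 for cyp51, 1.97 for arpc1b, 1.97 for tubb5, 2.2 for wasf2, 2.24 for atf3, 2.41 for tgm2l, 2.44 for arhgap27, 2.58 for cst14b.1 and 2.63 for ms4a17a.10, with adjusted p-values from 0.0114 (tubb5 and tgm2l) to 0.044 (cst14b.1). The cystatin gene cst14b.1 had effects of 3.49 in the parenchyma and 0.91 in the dorsal subventricular zone. Its unlesioned means there were 4.17 and 7.07, and its day 2 means 7.67 and 7.98. For ms4a17a.10, of a family of leukocyte membrane proteins, the effects were 3.27 and 0.65. Its unlesioned means were 5.06 and 5.57, and its day 2 means 8.33 and 6.22. For atf3 the effects were 1.81 and -0.42, and in the medial zone 1.64, with unlesioned parenchyma levels of 2.98 and 2.76, under the median of probe sets. Against the medial zone the difference was -2.43 for c4 (adjusted p = 0.014) and 2.30 for tgm2l (adjusted p = 0.0333). The groups of 3 and 2 arrays compared here are too small for a test of single outlying arrays.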

How the results depend on the processing

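With the replicate block, which the labels do not show to be a pairing, 344 genes were called (286 higher, 58 lower), and the counts of region differences were 2 against the dorsal subventricular zone and 2 against the medial zone. The 392 calls became 80 (78 higher, 2 lower) with the 8 parenchyma arrays alone, 69 (68 higher, 1 lower) with the 5 arrays compared, and 247 (14 lower) with array quality weights. The 64 lower calls became 43 after the array median over all probe sets was subtracted and 111 after quantile normalization again. They became 148 after the array median over genes was subtracted, a scaling chosen after seeing the data that shifted the median of all genes by -0.11. The share of higher calls was 328 of 392 in the main fit and 356 of 467 after quantile normalization again. It was 352 of 395 with the median over probe sets subtracted and 277 of 425 with that over genes. Leaving out 1 array gave 231 to 433 calls, 180 to 386 higher and 36 to 131 lower. The 10 differences from the dorsal subventricular zone became 4 with only the groups compared, 6 with weights, 3 after quantile normalization again, 2 with every probe set, 0 to 29 when 1 array was left out, and 30 without the 2 parenchyma arrays of lowest weight, also chosen after seeing the data. The 2 differences from the medial zone became 0 in limma with only the groups compared (1134 at an unadjusted p under 0.05) and with weights (1061 at that level), 5 after quantile normalization again, 1 with every probe set, 5 with a robust prior and trend, 1 after the gene median was subtracted, 0 to 20 when 1 array was left out, and 43 without the 2 arrays of lowest weight. Under the alternatives run, none of the 109 named genes called in the main comparison turned its direction while called. Of the 109, 35 were still called with the 8 parenchyma arrays alone, 70 with weights, 91 with the replicate block, and 56 to 91 when 1 of the 5 arrays was left out. The respiratory chain median stayed between -0.26 and -0.10 under the scalings tried.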

Other observations

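Probe sets without exactly 1 gene symbol were outside the comparison of genes. A limma fit to all 75212 probe sets, with p-values adjusted over all of them, called 585 of the 54406 such probe sets, 368 higher and 217 lower at day 2. The same fit called 306 of the 19260 probe sets that stand for genes, 263 higher and 43 lower, so falls made up a larger part of the calls there than among named genes. What these probe sets represent was not analysed here.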
